A study of Mus musculus with 4 samples.

Results

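Lin28a, Lin28b, Hmga2, Igf2bp1, Igf2bp2 and Igf2bp3 are genes that many embryonic tissues express early and later switch off, and they are read here across molar tooth development in the mouse. Every probe that the array's annotation gives to one of these 6 genes, or to the older name Lin28, was taken, whatever its values. That gave 14 probes of 41174 on the array, and 6 genes of 27670. Lin28a and Igf2bp2 had 1 probe each, and Lin28b, Hmga2, Igf2bp1 and Igf2bp3 had 3 each.

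The samples were whole molar germs of C57BL/6 embryos, taken from the first lower molar and pooled, at embryonic day (E) 11, 12, 14, 16 and 18, and profiled as Trizol-extracted total RNA. No genotype or treatment beyond the strain is labelled. RNA of E11, E12, E16 and E18 was labelled with Cy5 and each was hybridised with E14 RNA, labelled with Cy3, on 1 two-colour array, so 4 arrays hold 1 pool of each stage and 4 measurements of E14. Dyes were not swapped, and how many germs went into each pool is unknown here. A log2 ratio below is the named stage over E14, so 1 is a doubling, and the order of the other stages among themselves is read through E14.

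The scanner software flagged 52.5% to 59.0% of probes as well above background in the Cy5 channel and 54.3% to 57.0% in the Cy3 channel. The 4 E14 measurements of a gene had an SD with a median of 0.05 log2 units and a 95th percentile of 0.12, and repeated spots of a probe on one array had a median SD of 0.06 to 0.07. These are technical errors, and no stage has a second pool. E11 and E12 shared a slide, as did E16 and E18. The labelled tissue was checked against its markers: the dental epithelium markers Cdh1, Epcam, Krt5, Krt14 and Trp63 and the 7 dental mesenchyme markers, among them Pax9, Msx1, Lhx8 and Barx1, were well above background on all 4 arrays in both channels. Shh, an epithelial signal, was above background in Cy5 on 3 arrays.

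LIN28A and LIN28B are RNA-binding proteins that block the maturation of let-7 microRNAs by binding the precursor, where a GGAG motif in the loop is one of their contacts. Mature let-7 in turn represses mRNAs that carry sites for its seed, and Hmga2, Igf2bp1, Igf2bp2, Igf2bp3 and the Lin28 genes themselves are well-known targets. Hmga2 encodes a chromatin protein that binds AT-rich DNA and is abundant in embryonic mesenchyme, and the IGF2BP proteins bind, localise and stabilise mRNAs that include Igf2, Actb and Myc. In tooth development these days run from the thickened dental epithelium through bud and cap to bell, as epithelium and mesenchyme fold and differentiate.

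No microRNA was measured, so the let-7 sequences are printed only to show what links the genes. They are RefSeq entries (GRCm38.p6), with the seed, bases 2 to 8, in capitals. The 4 below stand for the family of 11 names that share the seed GAGGUAG.
mmu-let-7a-5p: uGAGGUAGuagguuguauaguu
mmu-let-7b-5p: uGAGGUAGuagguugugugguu
mmu-let-7g-5p: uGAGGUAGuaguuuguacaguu
mmu-miR-98-5p: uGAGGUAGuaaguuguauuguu

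The members differ from each other 3′ of the seed, and also in the loop of the hairpin. GGAG was found in the loop of 8 of 11 mouse hairpins with this seed and both arms annotated (72.7%), against 52 of 644 of all such mouse hairpins (8.07%). The hairpins below show one with GGAG in the loop, in capitals, and one without. Mirlet7g lies at chr9:106178840-106178927 on the plus strand and Mirlet7b at chr15:85707319-85707403 on the plus strand.
Mirlet7g: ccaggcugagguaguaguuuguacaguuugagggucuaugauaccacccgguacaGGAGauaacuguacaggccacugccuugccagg
Mirlet7b: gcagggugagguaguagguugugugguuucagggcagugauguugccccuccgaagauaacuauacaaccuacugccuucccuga

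All 5 genes of the set that could be measured fell from E11 to E18. A gene counted as measured if its brightest probe carried the above-background flag for Cy5 on 1 array or more, or for Cy3 on 2 or more. The test was a straight line in embryonic day through the 4 ratios, fitted with limma over 17393 measured genes and adjusted by Benjamini-Hochberg, and it left 2 residual degrees of freedom. Over all measured genes, 2.64% had a falling slope with adjusted p under 0.05 and 6.27% a rising one. Of the set, 5 of 5 measured genes were in the first group and 0 in the other, with a median slope of -0.20 log2 units per day against -0.0021 over all genes. For Hmga2 and the 3 Igf2bp genes the brightest probe was above background at every stage. Lin28b was above background in Cy5 at E11 and E12 only, so it entered the test through the stages where it is high, and its place in the count is no support. In pooled tissue, fewer cells of a type and less RNA per cell cannot be told apart. With slide as a block, 0 genes of 17393 passed limma's test. An unadjusted p under 0.05 was found for 578 of them, a smaller share of genes than that threshold itself. All 5 slopes kept their sign, with an adjusted p of 0.99999.

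**Figure D1:**
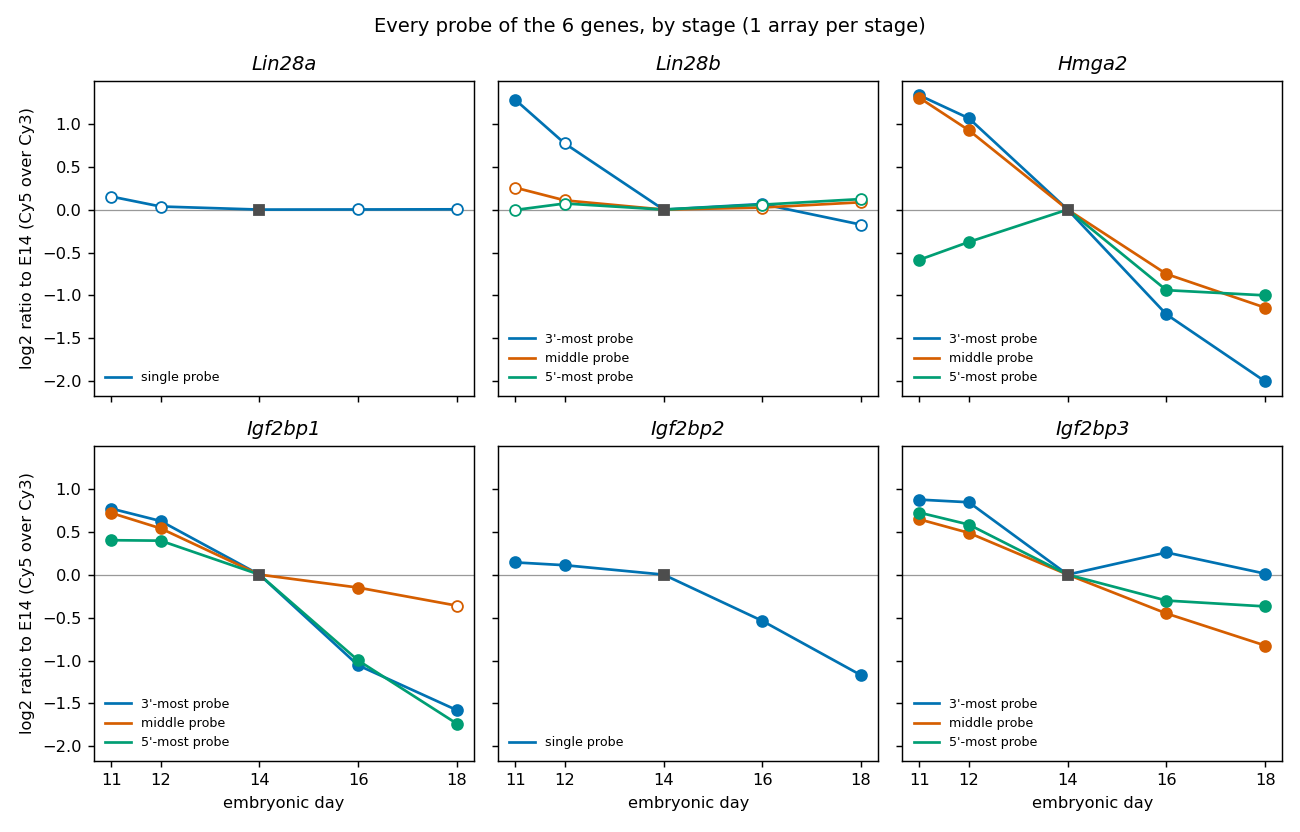
Log2 ratio over E14 against embryonic day for every probe of the 6 genes, 1 panel per gene; filled circles are probes well above background in both channels, open circles are not, and the black square is E14, at 0 by construction. The 3′-most Hmga2 probe runs from 1.33 at E11 to -2.00 at E18, and the single Lin28a probe stays between 0.00 and 0.15, all open.

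The LIN28 genes come first, as the blockers of let-7. The only Lin28a probe, at chr4:133382045-133382104 on the minus strand (build mm7 per the file headers, as for all probes below), was not well above background in either channel on any array. Its log2 ratios were 0.15 at E11, 0.04 at E12, and 0.00 at E16 and E18. Lin28a was therefore not detectable with this probe at any stage, and no fold or test is given.

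Lin28b was detected early. The 3′-most of its 3 probes, at chr10:45189273-45189332 on the minus strand, had a Cy5 signal of 216.0 at E11 over a local background of 33, and 146 at E12 over 30.5. At E16 the signal was 48.7 over 30 and at E18 it was 33.9 over 29, neither well above background. E14 gave 33.3 to 37.2 on the 4 arrays and was above background on 1 of them. The 2 early stages stood clear of the 3 later ones, which lay near the scanner's floor.

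On the log2 scale, the ratios of that probe were 1.28, 0.77, 0.06 and -0.18 in stage order. The slope of Lin28b was -0.20 ± 0.02 (SE) per day, with an adjusted p of 0.0106 in limma's test. Most of the E14, E16 and E18 values behind this slope are below the flag, and the filter let the gene in through its high stages, so the call was favoured by the filter. On the E11 array, where both channels were flagged, E11 was 2.42-fold above E14. E11 against E18 crosses slides and was 2.74-fold through E14 and 3.31-fold by Cy5 levels alone, with E18 set at the lowest flagged signal of its array. Without the E11 array the slope of Lin28b was -0.16, with an adjusted p of 0.0651. The offset used for dim spots matters here: the scanner software's own log ratios, with no offset, gave 3.29 at E11 and 3.37 at E12, and with them the order of E11 and E12 turned.

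The other Lin28b probes lay higher on the chromosome, towards the 5′ end. The middle probe, at chr10:45232798-45232857, was above background in Cy5 at E11 and E12 only, with log2 ratios of 0.25, 0.11, 0.02 and 0.09 in stage order. E11 was at least 1.15-fold above E14 there, with each E14 level set at the higher of its own and the lowest flagged signal of its array. Its slope of -0.02 did not pass in a fit over probes (adjusted p 0.372, limma, 26105 probes). The 5′-most probe, at chr10:45267326-45267385, was not above background on any array in either channel and its ratios ran from -0.00 to 0.12. The fall of Lin28b thus rests on 1 of 3 probes.

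**Figure D2:**
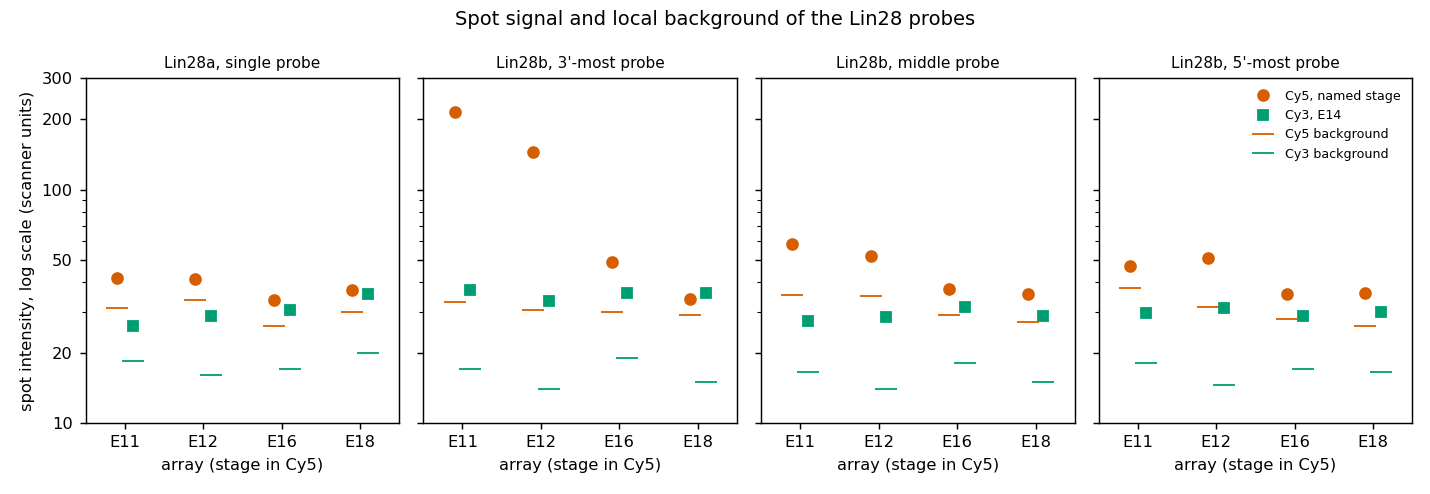
Mean spot signal and local background in scanner units, on a log axis, for the Lin28a probe and the 3 Lin28b probes, by stage and channel. The 3′-most Lin28b probe reaches 216.0 at E11 and 146 at E12 in Cy5, and its other signals lie between 33.3 and 48.7.

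Hmga2 had the largest range of the set. Its brightest probe, the 3′-most, at chr10:119755899-119755958 on the minus strand, had Cy5 signals of 13385 (E11), 13228 (E12), 2236 (E16) and 827 (E18), beside 1806 to 2104 in Cy3 for E14. Spot signals, here and for the other genes, are raw. Stages in Cy5 are compared with E14 in Cy3 by the normalised log2 ratios and not by these signals. The log2 ratios were 1.33, 1.06, -1.22 and -2.00. Both early stages were above E14 and both late stages below it, and each step between neighbouring stages exceeded the E14 SD of 0.05 (n = 4 hybridisations of the pool). E11 was 10.1-fold above E18. The slope was -0.50 ± 0.03 per day, with an adjusted p of 0.00518 in limma's test, the 14th most negative of 17393. The late ratios depend on the scaling. With median centring in place of loess, Hmga2 stood at -0.21 at E16 and -1.43 at E18, beside all-gene medians of 0.57 and 0.17.

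The decline of Hmga2 was not even. From E11 to E12 it was -0.27, from E12 to E16 it was -2.28, and from E16 to E18 it was -0.78. The largest step, over 4 days, is also the step between slides. The within-slide steps, E11 to E12 and E16 to E18, had the same sign. The slope with slide as a block was -0.37 ± 0.16 and did not pass limma's test (unadjusted p 0.0410, adjusted p 0.99999).

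The 3 Hmga2 probes did not give 1 answer. The middle probe, at chr10:119756830-119756889, had log2 ratios of 1.30, 0.92, -0.75 and -1.14, in the same order of stages, and E11 was 5.43-fold above E18. The 5′-most probe, at chr10:119769076-119769135, had -0.58, -0.38, -0.94 and -0.999, so that E14 was its highest stage. It was above background on all 4 arrays in both channels. In the fit over probes the middle one fell by 0.36 per day (adjusted p 0.00357, limma) and the 5′-most did not pass (-0.08, adjusted p 0.137). Whether the 5′-most probe lies in an exon, an intron or another transcript was not analysed here, because annotation of build mm7 was not used.

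Igf2bp1 encodes an oncofetal mRNA-binding protein. Its brightest probe, the 5′-most, at chr11:96072251-96072310 on the minus strand, had Cy5 signals of 2183 (E11), 2575 (E12), 672 (E16) and 227 (E18), beside 567 to 667 for E14. The log2 ratios were 0.40, 0.40, -0.999 and -1.74. E11 and E12 differed by less than the E14 SD of 0.18, and E16 and E18 both lay below E14 by more than it. That SD spans both slides, between which E14 differed by 0.31. E11 and E12 also differed by less than the E14 levels on their own slide, 10.05 and 10.02. The slope was -0.32 ± 0.03 per day (limma, adjusted p 0.00667), the 48th most negative. With median centring in place of loess, Igf2bp1 stood at -0.13 at E16, within the E14 SD of 0.18, beside an all-gene median of 0.57.

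All 3 Igf2bp1 probes fell. The 3′-most, at chr11:96067137-96067196, had 0.77, 0.62, -1.06 and -1.58, with E11 at 5.09-fold over E18. The middle probe, at chr11:96071229-96071288, had 0.72, 0.54, -0.15 and -0.36, and was not above background at E18. E11 was 2.11-fold above E18 there through E14 and 2.55-fold by Cy5 levels alone, and E14 was 1.28-fold above E18 on the E18 array. In the fit over probes the adjusted p was 0.00353 and 0.0112 for these probes and 0.00453 for the brightest. The E14 level of all 3 probes was higher on the slide of E11 and E12 than on the other slide, by 0.24 to 0.31 log2 units, a technical gap between repeats of the same stage.

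Igf2bp2, the family member that HMGA2 is known to activate in embryos, lay lower at the late stages. Its probe, at chr16:21710360-21710420 on the minus strand, had Cy5 signals of 1370 (E11), 1797 (E12), 854 (E16) and 353 (E18), beside 528 to 565 for E14. The log2 ratios were 0.14, 0.11, -0.54 and -1.17. The early stages lay slightly above E14, whose SD was 0.07, E11 and E12 differed by less than that, and the late stages lay below E14. E11 was 2.48-fold above E18.

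The slope of Igf2bp2 was -0.18 ± 0.03 per day, with an adjusted p of 0.0231 in limma's test. The call was lost without the E11 array (adjusted p 0.0738), the E12 array (0.0944) or the E18 array (0.140). At E16 the sign depends on the scaling: with median centring in place of loess the ratio was 0.34. Under that scaling the all-gene median lies at 0.40, 0.64, 0.57 and 0.17 in stage order, so a ratio of 0.34 at E16 is below the shift. The early Igf2bp2 ratios were 1.08 at E11 and 1.26 at E12 with it, farther above the all-gene median than with loess, so how close the early stages lie to E14 depends on the scaling.

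Igf2bp3 had the slope nearest to 0 of the 5 genes by the brightest probes. With the mean of flagged probes, those that pass the above-background rule, Lin28b did (-0.11 against -0.17). The 5′-most Lin28b probe was never flagged and is not in that mean. The brightest probe, the 3′-most, at chr6:49045761-49045820 on the minus strand, had Cy5 signals of 1488 (E11), 1859 (E12), 1019 (E16) and 539 (E18), beside 343 to 364 for E14. The log2 ratios were 0.87, 0.84, 0.26 and 0.01. E11 and E12 lay 0.03 apart, more than the E14 SD of 0.02 and less than the SD between spots. E18 was level with E14 within that E14 SD, and E16 lay between. E11 was 1.82-fold above E18.

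The slope of Igf2bp3 was -0.13 ± 0.03 per day (limma, adjusted p 0.0422). It no longer passed without any 1 of the 4 arrays, with an adjusted p of 0.0937 without E11, 0.142 without E12, 0.0622 without E16 and 0.198 without E18. Its other probes placed the late stages below E14. The middle probe, spanning chr6:49047900-49048507, had 0.64, 0.49, -0.45 and -0.83, and the 5′-most, at chr6:49067452-49067511, had 0.72, 0.58, -0.30 and -0.37. Both fell in the fit over probes, with an adjusted p of 0.00886 and 0.0234. With the mean of the 3 probes, E16 stood at -0.17 and E18 at -0.39.

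**Figure D3:**
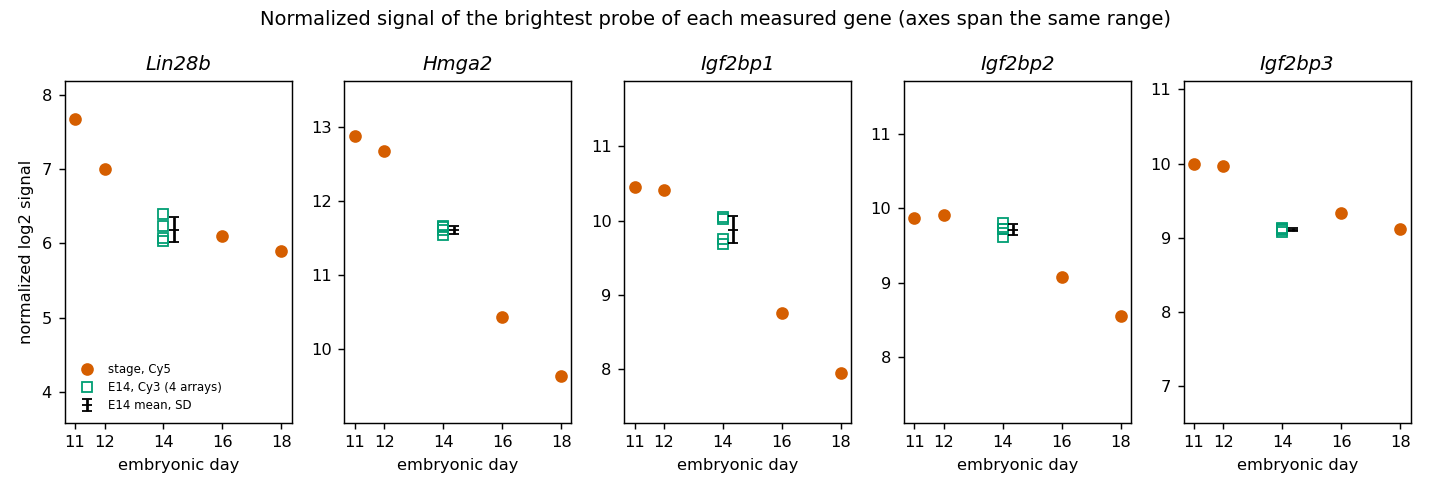
Normalised log2 signal of the brightest probe of each gene by stage: each Cy5 stage is 1 point, and the 4 E14 Cy3 measurements are drawn singly with their mean and SD. The E14 SD is 0.16 for Lin28b, 0.05 for Hmga2, 0.18 for Igf2bp1, 0.07 for Igf2bp2 and 0.02 for Igf2bp3, and levels of different probes are not comparable with each other.

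Set against E14 by size alone, with no test, the genes passed a 2-fold line at different stages. At E11 Lin28b and Hmga2 were at least 2-fold higher, as were 1.6% of all measured genes. Lin28b passed the filter through its high early stages, so its place in this count and the E11 to E18 count is no support. At E12 only Hmga2 of the set was, against 0.316% of genes. At E16 Hmga2 was at least 2-fold lower, against 1.7% of genes, with Igf2bp1 just short of the line at -0.999. With median centring the E16 ratios of Hmga2 and Igf2bp1 were -0.21 and -0.13, so neither was near that line. At E18 Hmga2, Igf2bp1 and Igf2bp2 were at least 2-fold lower, against 3.86%. Between E11 and E18, by brightest probes, all measured genes of the set except Igf2bp3 fell at least 2-fold, against 2.53% of genes. With the mean of flagged probes the difference was -1.14 for Igf2bp3 and -0.81 for Lin28b, so the exception was then Lin28b. That mean leaves out the 5′-most Lin28b probe. Between E12 and E16 the fall was at least 2-fold for Hmga2 and Igf2bp1, against 1.48%. Hmga2, Igf2bp1 and Igf2bp2 had the full order E11, E12, E14, E16, E18 from high to low, as did 2.9% of genes. For Igf2bp1 and Igf2bp2 the E11 and E12 values in that order lie within the E14 SD.

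Within slides, the 4 genes above background at both late stages were lower at E18 than at E16 by their brightest probes, with differences of -0.25 for Igf2bp3, -0.63 for Igf2bp2, -0.74 for Igf2bp1 and -0.78 for Hmga2. Lin28b was not above background at either stage, so its late step was not measured. From E11 to E12 the brightest probe of Lin28b stepped by -0.51 and that of Hmga2 by -0.27, while those of the 3 Igf2bp genes stepped by -0.03 to -0.01. The step of Lin28b turned to 0.08 with scanner log ratios. The E11 to E12 step of Igf2bp1 and Igf2bp3 depends on the probe. It was -0.14 and -0.18 for the 3′-most and middle probes of Igf2bp1 (E14 SD 0.14 and 0.16). For the middle and 5′-most probes of Igf2bp3 it was -0.16 and -0.14 (E14 SD 0.09 and 0.12). These SDs span both slides. On the slide of E11 and E12, the E14 levels were 9.27 and 9.31, and 6.89 and 6.87, for those Igf2bp1 probes. For those Igf2bp3 probes they were 9.39 and 9.28, and 7.81 and 7.70. The same-slide E14 levels thus lay closer together than the step for each of these probes. With median centring the steps of the brightest probes were 0.17 for Igf2bp1 and 0.18 for Igf2bp2 and Igf2bp3, each smaller than the rise of the all-gene median under that scaling, from 0.40 to 0.64. Euclidean distances between the 4 ratios put Igf2bp1 nearer to Igf2bp2 (0.824) than to Hmga2 (1.20). Igf2bp3 lay at 1.76 from Igf2bp2, 2.25 from Igf2bp1 and 2.55 from Hmga2. The smallest distance in the set, Lin28b to Igf2bp3 (0.491), is not read further, because most Lin28b values are below the flag. For the same reason Lin28b was left out of the nearest genes below.

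For members with a range of at least 1 log2 unit and enough signal on every array, the nearest genes by that distance were sought among 14466 genes, over 4 ratios that share E14. Hmga2 was nearest to Eya4, a transcription cofactor (0.361), to Slc4a1, the red-cell anion exchanger (0.539), and to Col2a1, the cartilage collagen (0.706). Igf2bp1 was nearest to Clmp, an adhesion molecule (0.298), Aldh1a2, a retinoic acid synthesis enzyme (0.308), and Dnmt3a, a de novo DNA methyltransferase (0.355). Igf2bp2 was nearest to Usp42, a deubiquitinase (0.157), Frmd4a (0.204) and Prodh, a proline-degrading enzyme (0.218).

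Of 19 measured genes of let-7 processing and turnover, 1 rose, 1 fell and 17 did not pass, beside 6.27% rising and 2.64% falling over all genes. Their median slope was -0.07, 16 of 19 slopes were below 0, and 9 had an unadjusted p under 0.05. Over all measured genes 51.6% of slopes were below 0, and 4819 of 17393 had an unadjusted p under 0.05 in limma's test. Dicer1, which cuts the precursor, fell (log2 ratios 0.63, 0.49, -0.45 and -0.57, slope -0.19 ± 0.03, limma adjusted p 0.0195). With slide as a block the slope of Dicer1 was -0.08 ± 0.17, and its call was lost without the E11 or the E12 array. Trim25, a ubiquitin ligase known to assist LIN28A, rose (-1.24, -0.74, 0.67 and 0.45, slope 0.26 ± 0.05, adjusted p 0.0289), but with median centring its adjusted p was 0.105. With slide as a block the slope of Trim25 was 0.01 ± 0.18. Tut4, the terminal uridylyl transferase that acts with LIN28, had a slope of -0.17 (adjusted p 0.0508), Khsrp, a precursor-binding protein, -0.16 (0.0866), and Ago4, an Argonaute, 0.13 (0.125; with slide as a block -0.15).

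Of 24 measured other let-7 targets, 3 fell, 0 rose and 21 did not pass, beside the same shares over all genes, with a median slope of -0.02. The falling genes were Hic2, a zinc finger repressor (slope -0.24, limma adjusted p 0.0271), Tgfbr1, a TGF-beta receptor (-0.15, 0.0476), and Cdc25a, a cell cycle phosphatase (-0.13, 0.0435). With slide as a block the slope of Hic2 was 0.02. Cdc25a had an adjusted p of 0.0514 with median centring. With the mean of flagged probes limma's adjusted p was 0.114 for Tgfbr1 and 0.0534 for Cdc25a. Rrm2, a subunit of ribonucleotide reductase, had -0.16 (0.0758). At the other end stood Ccnd1, cyclin D1 (0.13, 0.231), Igf1r, the IGF receptor (0.13, 0.065), and Nras (0.07). No probe was named Trim71 or Irs2, and Acvr1c was not measured.

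Among RNAs bound by IGF2BP proteins and their protein partners, 1 of 15 measured genes fell, 3 rose and 11 did not pass. Over all genes 2.64% fell and 6.27% rose. The median slope of the list was -0.04. Igf2, the growth factor that names the family, stood at 0.01, 0.12, -0.69 and -1.53 and fell (slope -0.22 ± 0.04, limma adjusted p 0.0211). Like Igf2bp2, it stood close to E14 at E11 and E12 and below it at E16 and E18. H19, its imprinted neighbour, had -0.26, -0.15, -0.14 and -1.17 and did not pass (-0.11, adjusted p 0.230), and without the E18 array its slope was 0.02. Actb had a slope of -0.09.

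The risers were Cd44, a hyaluronan receptor, Myc and Ctnnb1, beta-catenin. Cd44 was far lower early (-3.11, -2.65, -0.04 and -0.04, slope 0.48, limma adjusted p 0.00965). Myc had a slope of 0.23 (adjusted p 0.0348) and Ctnnb1 0.18 (0.0176). With median centring Cd44 alone of these kept its call, with 0.142 for Myc and 0.107 for Ctnnb1, and 1 gene of the list rose and 3 fell.

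Of 13 measured HMG-box, HMGN and Hmga2-linked genes, 2 fell, 1 rose and 10 did not pass, beside 2.64% falling and 6.27% rising over all genes. Their median slope was -0.02. Hmga1, the close relative of Hmga2, had 0.31, 0.16, 0.02 and -0.30, the same direction at a smaller size, and did not pass (slope -0.08, limma adjusted p 0.136), while with median centring it fell (-0.16, adjusted p 0.0373). Twist1, a mesenchymal transcription factor, fell (-0.21, adjusted p 0.0286), as did Hmgb1 (-0.16, 0.0287). With the mean of its flagged probes Hmgb1 had a slope of -0.07 and did not pass (limma adjusted p 0.222). Cdkn2b, an inhibitor of cyclin-dependent kinases, rose (0.25, 0.0208). With slide as a block the slope of Cdkn2b was 0.005 ± 0.12, and its ratio was lower at E18 (0.78) than at E16 (0.93). Of 5 measured pluripotency genes used together with Lin28, 0 passed limma's test and 2 had an unadjusted p under 0.05, beside 4819 of 17393 over all genes. Among them were Sox2 (-0.17, 0.282) and Klf4 (0.26, 0.0706). The counts of these lists rest on single arrays. Of their 76 measured genes, 12 passed limma's test, beside 1551 of 17393 over all genes. Of the 76, 0 passed without the E11 array and 2 without the E12 array. Without the E11 array 29 had an unadjusted p under 0.05, beside 4509 of 17393 over all genes. With slide as a block 0 passed (4 at an unadjusted p under 0.05, beside 578 of 17393 over all genes).

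**Figure D4:**
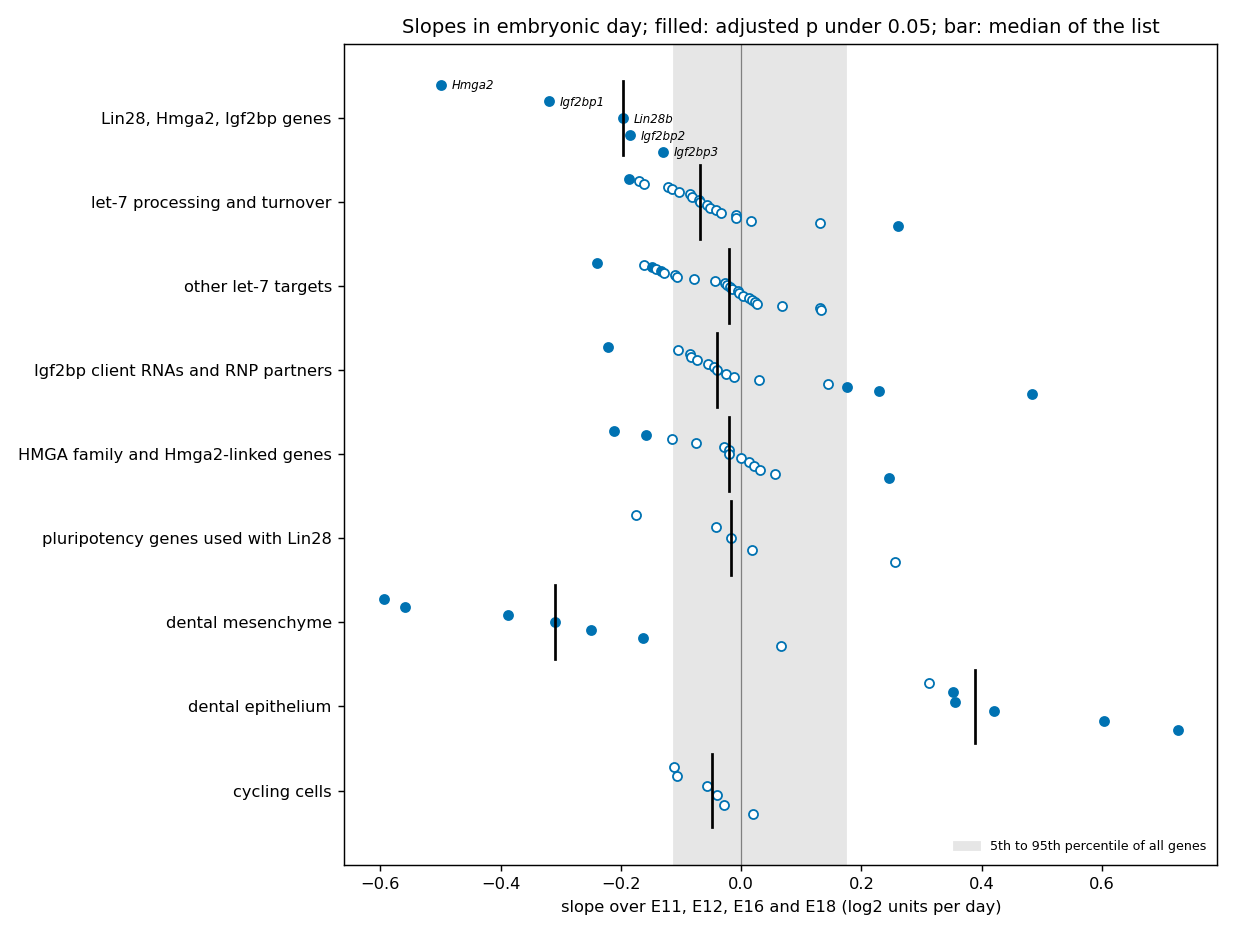
Slopes in log2 units per embryonic day for the 5 measured genes of the set, 5 pathway lists and 3 marker lists; each point is a gene, filled where the adjusted p is under 0.05, a bar is the list's median, and the grey band spans the 5th to 95th percentile of all genes (-0.11 to 0.17). The genes of the set run from -0.50 (Hmga2) to -0.13 (Igf2bp3), all left of the band.

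Markers of the tissue's cell types moved over the same days. Of 7 measured dental mesenchyme markers, 6 fell, against 2.64% of all genes, with median log2 ratios of 0.11, 0.03, -1.20 and -2.49, and the log2 ratio of their summed signal was -0.21, -0.10, -1.20 and -1.98. Of 6 dental epithelium markers 5 rose, against 6.27% of all genes, with medians of -1.42, -0.69, 1.20 and 1.26, and their summed signal stood at -2.87, -1.60, 0.88 and 0.37. Without the E11 array 3 mesenchyme markers fell and 1 epithelium marker rose, and without the E12 array 4 and 3. With slide as a block it was 0 and 0 in limma's test (4 and 1 at an unadjusted p under 0.05, beside 578 of 17393 genes). Of 9 measured erythroid markers 3 fell, the embryonic globins Hbb-y, Hbb-bh1 and Hba-x, against 2.64% of all genes. The erythroid count was 1 without the E11 array, 5 without E16 and 5 without E18, beside 65, 754 and 462 of 17393 genes. The summed erythroid signal stood at 2.15, 1.04, -3.56 and -3.61. Of 6 markers of cycling cells 0 passed limma's test and 2 had an unadjusted p under 0.05, beside 4819 of 17393 over all genes. The medians of the cycling markers were 0.64, 0.19, -0.15 and 0.14. The part of these shifts in the fall of Hmga2, Lin28b and the Igf2bp genes was not tested.

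Among other cell types, 0 of 4 endothelial and 0 of 4 leukocyte markers passed limma's test, with 0 and 1 at an unadjusted p under 0.05. Over all measured genes 4819 of 17393 had an unadjusted p under 0.05. Of 4 measured neuron markers 2 rose, against 6.27% of all genes. Of 5 muscle markers 2 were measured and 0 passed, with 1 at an unadjusted p under 0.05, and Myod1, Myf5 and Des were not measured. Of 3 measured odontoblast markers 1 rose, Ibsp (slope 0.43, limma adjusted p 0.0377), against 6.27% of all genes. Dspp, which defines odontoblasts, was above background in Cy5 on 1 array. Of 3 measured ameloblast markers 1 rose, Odam (slope 0.45, limma adjusted p 0.0309), against 6.27% of all genes, and Enam was not measured. With slide as a block the slope was -0.31 for Ibsp and 0.94 for Odam.

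**Figure D5:**
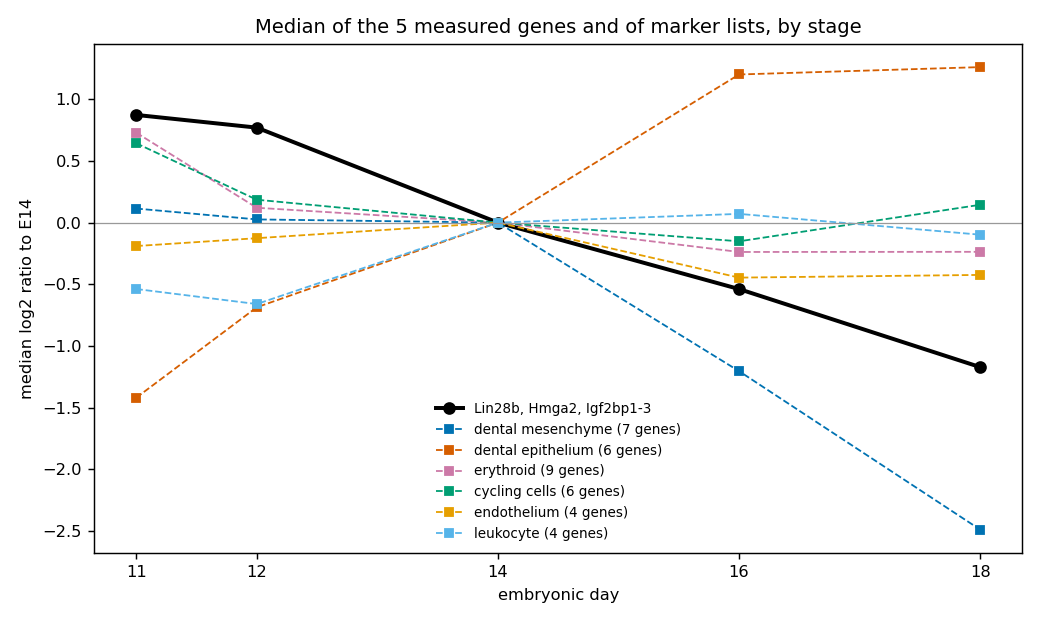
Median log2 ratio over E14 by stage for the genes of the set and for lists of cell type markers. The dental mesenchyme median falls from 0.11 at E11 to -2.49 at E18 and the dental epithelium median runs from -1.42 to 1.26.

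The promoters of 3 of the falling genes are printed to show which short motifs they hold. They are the 250 bases before the RefSeq start (GRCm38.p6, minus strand, 5′ to 3′), with motif matches in capitals. The motifs searched, on both strands, were the E-box CACGTG, the CCAAT box, the TATA box (TATAAA), the GC box (GGGCGG) and the pyrimidine repeat TCTCTCTC. A match on the reverse strand appears as its complement read backwards, such as ATTGG for the CCAAT box. No 2 of the printed matches overlap. Lin28b lies at chr10:45470202-45470451, Igf2bp3 at chr6:49214955-49215204 and Hmga2 at chr10:120476470-120476719.
Lin28b: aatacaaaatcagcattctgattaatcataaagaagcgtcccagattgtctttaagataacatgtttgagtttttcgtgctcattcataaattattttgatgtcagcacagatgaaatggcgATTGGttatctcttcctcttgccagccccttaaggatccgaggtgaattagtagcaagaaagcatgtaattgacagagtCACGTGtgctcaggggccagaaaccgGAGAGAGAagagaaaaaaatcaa
Igf2bp3: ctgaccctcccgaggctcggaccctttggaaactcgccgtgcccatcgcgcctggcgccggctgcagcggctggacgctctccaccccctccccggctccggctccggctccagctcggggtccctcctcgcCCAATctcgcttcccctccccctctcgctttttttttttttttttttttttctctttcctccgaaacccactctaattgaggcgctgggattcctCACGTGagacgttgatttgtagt
Hmga2: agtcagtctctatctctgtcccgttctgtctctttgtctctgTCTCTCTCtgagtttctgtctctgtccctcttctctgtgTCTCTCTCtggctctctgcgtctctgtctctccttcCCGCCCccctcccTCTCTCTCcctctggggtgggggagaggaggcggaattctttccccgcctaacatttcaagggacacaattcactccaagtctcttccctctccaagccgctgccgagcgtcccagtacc

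Lin28b and Igf2bp3 both hold CACGTG, the E-box bound by MYC-type factors, at -49 and -23 from the start, and 6.02% of 32851 mouse promoters of this length hold it. Both also hold CCAAT, as 33.8% of promoters do. Hmga2 holds TCTCTCTC 3 times, at -208, -169 and -120, and Lin28b 1 time, against 3.26% of promoters with at least 1 match. GGGCGG, the GC box, is in the promoters of Hmga2 and Igf2bp2 (32.7% of promoters), and TATAAA (12.4%) in none of the 5 promoters of the set in the table, those of Lin28a, Lin28b, Hmga2, Igf2bp2 and Igf2bp3. GC content was 39.2% for Lin28b, 56.4% for Hmga2, 60.4% for Igf2bp3, 61.2% for Lin28a and 77.2% for Igf2bp2, around a median of 52.4% over all promoters. These matches are descriptions of the sequence and not of binding.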

How the data were processed

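Linear intensity values per spot (mean signal, median local background) and flags were deposited from Agilent Feature Extraction 10.5.1.1, per the file headers. The deposited log10 ratio column (Cy5 over Cy3) and the deposited series table, whose values matched it, served as alternatives. From the intensities, limma 3.58.1 in R 4.3.3 applied normexp (offset 50) and loess; the offset compresses ratios of dim probes. Control and outlier spots were left out, 92 to 126 outliers per array; 0 spots were saturated. Median signal was 51.5 to 71.7 in Cy5 and 39.8 to 44.0 in Cy3.

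Levels were taken per channel after loess and Aquantile, and bounds from them are open to dye bias. A gene took its brightest probe. The slope in day was fitted with lmFit and eBayes with an intensity trend, and the step was tested on simulated data. Of 41174 probes, RefSeq accessions named 22944, symbols 6664 and synonyms 3108, while 8458 kept the name in the files. Probe coordinates are those of the files.

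The genes and all lists were chosen with earlier results of these data known. Named are all 6 genes, up to 3 genes at either end of each pathway list, Hmga1, Trim71, Igf2 and H19, and 3 nearest genes per member. Other genes named were chosen after their values were seen. Alternatives were no background correction, median centring, scanner log ratios, the series table, the mean of flagged probes, no filter, no intensity trend, slide as a block and each array left out. Flagged probes here are those that pass the above-background rule used for genes. The fit over probes was added after the data were seen. One marker gene of the lists is not reported here and was left out of its list.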

Additional observations from a re-analysis of the deposited data

How the results depend on the processing

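All 5 slopes of the measured genes stayed negative under every alternative run. With slide as a block (1 residual degree of freedom) they were -0.20 for Lin28b, -0.37 for Hmga2, -0.30 for Igf2bp1, -0.26 for Igf2bp2 and -0.10 for Igf2bp3, and none passed. Leaving out single arrays gave -0.22 to -0.16 for Lin28b, -0.53 to -0.48 for Hmga2, -0.35 to -0.30 for Igf2bp1, -0.21 to -0.14 for Igf2bp2 and -0.14 to -0.12 for Igf2bp3; Hmga2 and Igf2bp1 passed each time. With no filter on dim probes Igf2bp3 kept a slope of -0.13 and no longer passed (limma, adjusted p 0.0511). The genes passing the slope test numbered 1551, of which 460 fell and 1091 rose; median centring gave 736 falling and 503 rising, slide as a block 0 and 0, and leaving out single arrays 214 to 2377 in all and 65 to 754 falling. Of the set, 5 fell, 0 with slide as a block, 2 without E11, 3 without E12, 4 without E16 and 3 without E18, 4 with no filter, and 5 under the other alternatives.

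Counts of genes at least 2-fold from E14 moved with scaling and the treatment of dim spots. At E11 they were 4553 with median centring, 3846 with scanner log ratios and 3835 with the series table; at E12 they were 5783, 2248 and 2241, at E16 4304, 2876 and 2871, and at E18 2311, 4507 and 4496. Of the set, median centring put 5 genes past the line at E11 and 5 at E12. At E16 it put 1 past the line, Igf2bp3, which stood higher than E14 (1.12). The mean of flagged probes put 0 past the line at E11, E12 and E16. Scanner log ratios, the series table and no background correction each put 2 past it at E12 and at E16. The causes were not tested. Dim signal limits Lin28a and Lin28b, and 1 pool per stage limits every slope. No paired analysis was possible because each stage has 1 array and the shared replicate number 1 gives fewer than 2 pairs.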
